A study of Mus musculus with 8 samples.

Results

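Immunoglobulin heavy chain variable segments (Ighv) are the gene segments that encode most of the antigen-binding part of an antibody heavy chain. They were examined in stroke infarcts of aged mice by taking each gene whose symbol starts with Ighv and that had at least 1 count in any library. This rule gave 123 of the 185 Ighv segments in the count tables, out of 46078 genes in all. RNA was sequenced from 8 infarcts of wild type C57BL/6J mice aged 18 months, 4 given PBS (vehicle) and 4 given 4 g/kg HPβCD (2-hydroxypropyl-β-cyclodextrin, a sugar ring that binds cholesterol). Both groups had distal hypoxic (DH) stroke and received subcutaneous injections 3 times a week for 6 weeks from 1 week after it, and infarcts were dissected by eye at 7 weeks. The comparison asks how the heavy chain repertoire of a chronic infarct differed with HPβCD. Libraries are called by group and replicate number, and nothing in the labels ties a vehicle mouse to an HPβCD mouse with the same number.

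A developing B lymphocyte joins 1 Ighv segment to a diversity and a joining segment, so that each B cell and all of its descendants carry the same rearranged heavy chain. When such a cell multiplies, or becomes a plasma cell that makes very large amounts of antibody RNA, its segment takes a large share of the Ighv reads in the tissue. In a library made from bulk tissue the share of a segment therefore reflects both how many cells use it and how much RNA each of them makes, and fewer cells cannot be told apart from less RNA per cell. Reads were counted on the segment, not on the rearranged chain, so the counts do not say how many clones used it.

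The members lie on chromosome 12 between 113572927 and 116000461 (GRCm38), all on the minus strand, from 143.1 to 2570 kb from the joining segment Ighj1. The annotation gives 102 of them as functional variable genes and 21 as pseudogenes, which cannot encode a complete chain. The 62 segments with no count were 49 pseudogenes, 11 variable genes and 2 of the annotation's LV class. Members belonged to 15 sequence families, named by the number before the hyphen, and Ighv1 was the family with most members (67). Their exons span 293 to 480 bp, and no exon of a member overlapped an exon of another annotated gene on either strand.

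The segments that took the first place in a library are shown by their last 120 coding bases, because a different segment led in most libraries while all of them came from family Ighv1. Sequences are germline transcript sequences of the GRCm38 annotation, 5′ to 3′, not the rearranged or mutated sequences of these mice. Capitals mark the bases that differ from Ighv1-26, which had the highest mean level of all members.
Ighv1-26: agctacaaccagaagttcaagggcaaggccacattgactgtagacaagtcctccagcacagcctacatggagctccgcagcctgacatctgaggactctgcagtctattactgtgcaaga
Ighv1-9: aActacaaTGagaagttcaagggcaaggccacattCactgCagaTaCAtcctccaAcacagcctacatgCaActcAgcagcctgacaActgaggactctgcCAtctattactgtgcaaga
Ighv1-39: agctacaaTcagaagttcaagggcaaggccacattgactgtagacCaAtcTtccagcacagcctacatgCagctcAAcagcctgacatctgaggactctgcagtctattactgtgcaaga
Ighv1-80: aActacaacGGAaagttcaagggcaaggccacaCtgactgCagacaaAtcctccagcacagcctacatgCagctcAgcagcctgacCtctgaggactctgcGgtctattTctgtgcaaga
Ighv1-53: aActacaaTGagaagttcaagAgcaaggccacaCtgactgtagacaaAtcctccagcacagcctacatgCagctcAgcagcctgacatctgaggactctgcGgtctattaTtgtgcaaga
Ighv1-75: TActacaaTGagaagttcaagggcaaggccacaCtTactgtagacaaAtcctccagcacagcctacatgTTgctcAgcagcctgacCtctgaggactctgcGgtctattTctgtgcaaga
Ighv1-42: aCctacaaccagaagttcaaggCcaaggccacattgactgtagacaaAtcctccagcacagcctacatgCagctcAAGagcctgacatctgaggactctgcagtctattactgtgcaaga
The other 6 differed from Ighv1-26 at 7 to 15 of these 120 positions, and all 7 ended in the same tgtgcaaga, the codon of the conserved cysteine and the start of the third hypervariable loop.

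Ighv5-9-1 is shown over its last 294 bases beside Ighv1-26, because these 2 segments made up most of the usage of vehicle 2 and come from different families. Capitals mark the stretch from the cysteine codon onward, where the diversity segment is joined.
Ighv1-26: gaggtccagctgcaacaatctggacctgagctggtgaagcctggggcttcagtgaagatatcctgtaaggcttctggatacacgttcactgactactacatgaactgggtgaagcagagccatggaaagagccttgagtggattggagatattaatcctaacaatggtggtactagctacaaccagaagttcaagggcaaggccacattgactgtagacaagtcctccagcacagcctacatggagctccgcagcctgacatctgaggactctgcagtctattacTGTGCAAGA
Ighv5-9-1: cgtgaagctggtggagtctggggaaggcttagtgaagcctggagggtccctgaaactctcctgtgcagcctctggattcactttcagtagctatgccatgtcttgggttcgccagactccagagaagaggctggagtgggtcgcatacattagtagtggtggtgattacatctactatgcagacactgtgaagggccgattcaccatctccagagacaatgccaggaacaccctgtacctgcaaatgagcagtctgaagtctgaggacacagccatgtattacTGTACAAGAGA

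Ighv1-72 and Ighv1-62-3 are shown over their last 180 bases, because they are the kind of near-identical pair whose reads a counter can split or discard. Capitals mark the single base that differs in this stretch.
Ighv1-72: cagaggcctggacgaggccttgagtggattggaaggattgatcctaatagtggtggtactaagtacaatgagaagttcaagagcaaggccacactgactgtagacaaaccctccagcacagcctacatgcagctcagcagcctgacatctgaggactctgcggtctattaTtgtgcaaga
Ighv1-62-3: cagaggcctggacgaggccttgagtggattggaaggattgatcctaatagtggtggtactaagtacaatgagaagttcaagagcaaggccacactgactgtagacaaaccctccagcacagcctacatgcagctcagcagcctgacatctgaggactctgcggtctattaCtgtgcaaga
Over 294 aligned bases the pair had 2 mismatches, and 28.3% of the 75-base windows of Ighv1-72 occurred in no other annotated transcript. Its level is therefore uncertain. Across the members, 47 had only unique 75-base windows and 4, including this pair, had fewer than 50% unique windows. Of the segments described singly below, Ighv1-52 had the lowest share, 52.3%, and 4 mismatches to Ighv1-61.

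Ighv RNA was a smaller share of gene counts in each infarct of HPβCD-treated aged mice than in any vehicle infarct. Ighv counts made up 0.129%, 0.296%, 0.241% and 0.108% of all gene counts in vehicle 1 to 4. They made up 0.0333%, 0.00356%, 0.00496% and 0.0186% in HPβCD 1 to 4. The lowest vehicle library was above the highest HPβCD library, and HPβCD 2 and 3 were far below the others. On the log2 scale the mean share was -9.14 ± 0.70 (SD, n = 4) with vehicle and -13.25 ± 1.53 (SD, n = 4) with HPβCD, a difference of -4.12. An exact two-sided permutation test over the 70 assignments gave p = 0.0286, the smallest that 4 against 4 allows. It was 0.229 after Benjamini-Hochberg adjustment over the 8 usage measures tested, where 1 measure alone could not have passed 0.05. Without vehicle 2 the groups still did not overlap, and the same difference was -3.87 with an exact permutation p of 0.0571. Gene counts totalled 16616909 to 19435754 in 7 libraries and 32933164 in vehicle 2.

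On the CPM scale (counts scaled to library size, adjusted here by edgeR's TMM method), the members summed to 1208, 2794, 2566 and 1031 CPM with vehicle and to 339, 37.4, 51.6 and 186 CPM with HPβCD. The leading segments held much of this CPM in vehicle 2 and 3, but the groups stayed apart without them. With the 2 most used segments of each library left out, the rest summed to 889, 379, 590 and 681 CPM with vehicle and to 185, 19.4, 38.8 and 112 CPM with HPβCD. These groups did not overlap either. The log2 difference in share was -3.35 (exact permutation p = 0.0286), smaller than the -4.12 with all members. It was -3.37 without the 10 most used segments (exact permutation p = 0.0286). These exclusions were chosen after the values were seen.

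**Figure D1:**
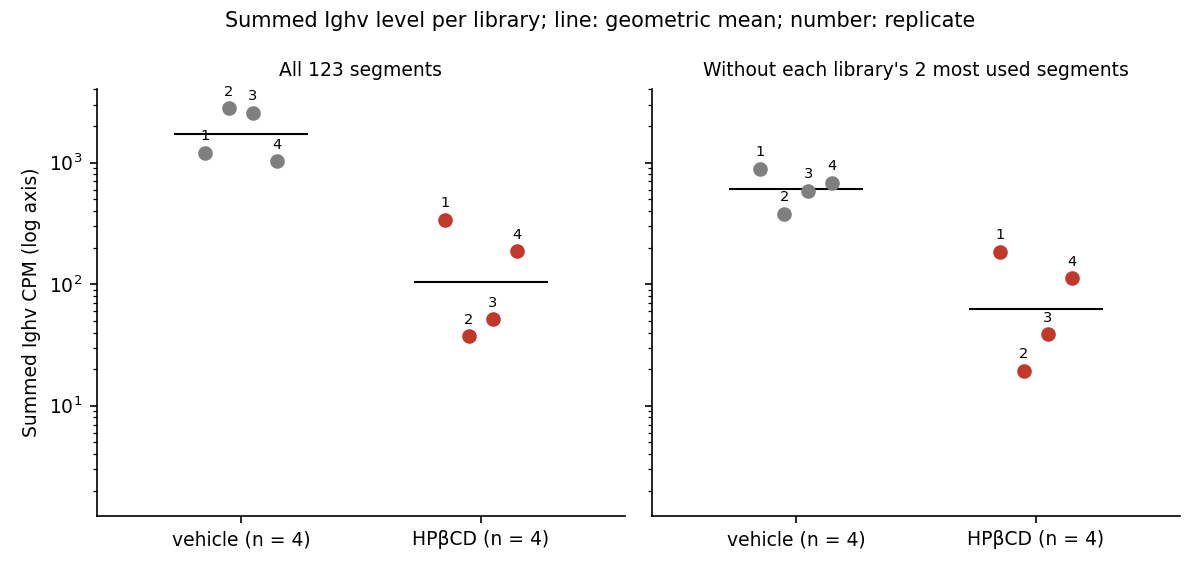
Summed Ighv CPM (log axis) in each library, for all 123 members on the left and without the 2 most used segments of that library on the right; points are libraries numbered by replicate and lines are geometric means of 4. On both sides each vehicle point lies above each HPβCD point, and HPβCD 2 is lowest.

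Every library was led by a segment of family Ighv1, but 7 different segments took the first place in the 8 libraries. Usage is given from here on as counts per kb of exon divided by their sum over all members, in percent, so that segments of different length can be compared. In vehicle 2, Ighv1-26 took 65.0% of usage and Ighv5-9-1 21.2%. In vehicle 3, Ighv1-9 took 48.2% and Ighv1-64 28.3%. Vehicle 1 and 4 had no such leader, with Ighv1-39 at 13.4% and Ighv1-82 at 13.0% in vehicle 1, and Ighv1-80 at 17.6% and Ighv1-75 at 16.2% in vehicle 4. The vehicle group thus held both the most and the least concentrated first place of the 8 libraries.

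With HPβCD the first segments took intermediate shares of a much smaller pool. Ighv1-9 took 30.5% and Ighv1-81 15.7% in HPβCD 1. Ighv1-53 took 30.2% and Ighv1-26 18.6% in HPβCD 2. Ighv1-75 took 16.1% and Ighv1-9 8.53% in HPβCD 3, and Ighv1-42 took 24.7% and Ighv1-53 15.9% in HPβCD 4. Ighv1-9 was thus the only segment to lead 2 libraries, 1 in each group. The first places of HPβCD 2 and 3 rested on 182 and 160 counts, against 60948 counts of Ighv1-26 in vehicle 2.

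**Figure D2:**
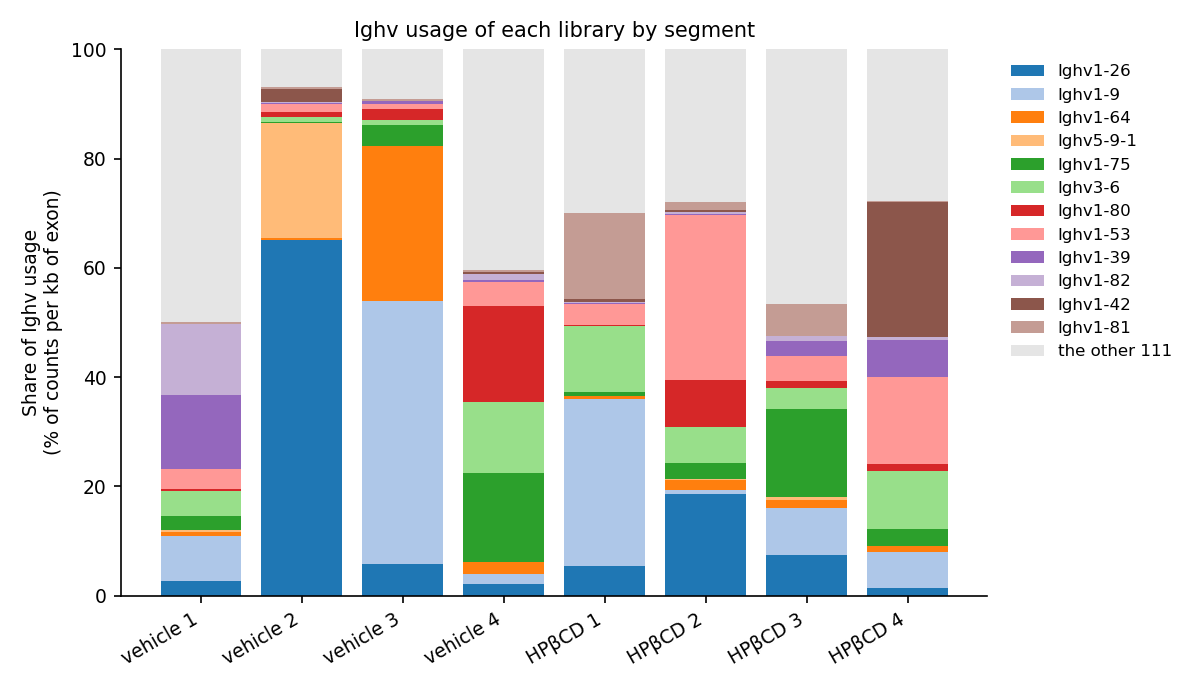
Share of Ighv usage (percent of counts per kb of exon) taken in each library by 12 named segments, with the other 111 in pale grey; each bar is 1 library and sums to 100%. Ighv1-26 with Ighv5-9-1 fills 86.2% of vehicle 2 and Ighv1-9 with Ighv1-64 fills 76.6% of vehicle 3, and no other bar is filled to 50% by its first 2 segments.

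The spread of usage over segments was summarised in several ways, and none of these separated the groups. The inverse Simpson index, which is the number of equally used segments that would give the same concentration, was 15.8, 2.13, 3.13 and 11.2 with vehicle and 6.91, 6.84, 17.8 and 8.68 with HPβCD. Vehicle 2 and 3 were the lowest, HPβCD 3 the highest, and the groups overlapped. The difference in its log2 was 0.66 (exact permutation p = 0.429, adjusted p = 0.686). Evenness (the Pielou index, 1 when all detected segments are used equally) was 0.711, 0.289, 0.390 and 0.654 with vehicle and 0.593, 0.669, 0.806 and 0.634 with HPβCD. Its difference was 0.165 (exact permutation p = 0.257, adjusted p = 0.686). The share of the first segment was 36.1% ± 24.8 (SD, n = 4) with vehicle and 25.4% ± 6.75 (SD, n = 4) with HPβCD (exact permutation p = 0.429, adjusted p = 0.686). The 10 most used segments together took 83.0% ± 13.1 and 77.3% ± 10.7 (SD, n = 4 each; exact permutation p = 0.571, adjusted p = 0.686).

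Reaching 50% of usage took 6, 1, 2 and 4 segments in vehicle 1 to 4 and 3, 3, 7 and 3 segments in HPβCD 1 to 4. Reaching 90% took 26, 4, 6 and 21 segments with vehicle and 15, 18, 33 and 18 with HPβCD. The 2 vehicle libraries with a leading pair needed fewest segments at both levels.

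**Figure D3:**
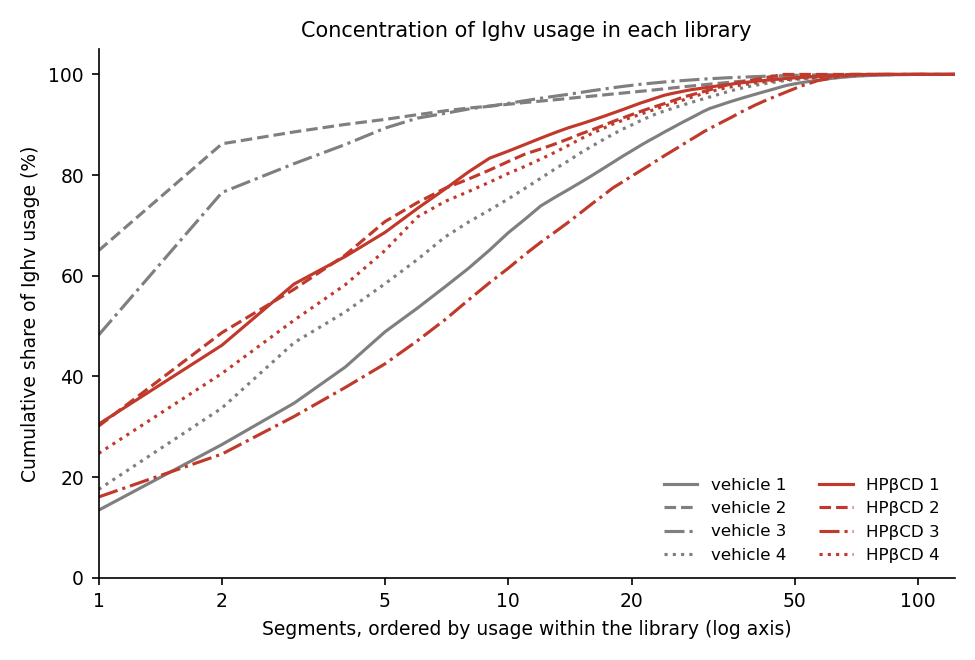
Cumulative share of Ighv usage (percent) against the number of segments, ordered by usage within each library (log axis), with vehicle in grey and HPβCD in red. Vehicle 2 and 3 start at 65.0% and 48.2% and lie above the rest, vehicle 1 and HPβCD 3 rise most slowly, and the other HPβCD curves run between them.

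More segments were detected with vehicle (97, 109, 76 and 93) than with HPβCD (76, 47, 69 and 78), but a library with more Ighv counts can show more segments, and these counts ran from 612 in HPβCD 2 to 97573 in vehicle 2. Vehicle 3 had 42492 Ighv counts, the second most, and 76 segments, as many as HPβCD 1 with 5914. When each library was brought to 612 Ighv counts, 55.1, 33.9, 29.0 and 48.3 segments were expected with vehicle and 42.2, 47.0, 63.4 and 46.7 with HPβCD (exact permutation p = 0.343, adjusted p = 0.686). At even depth the 2 lowest numbers were therefore vehicle 2 and 3, and the groups overlapped. A segment with no count in HPβCD 2 may still have made up to 0.490% of its Ighv counts, against up to 0.00307% in vehicle 2 (3 counts of the total, counting error only).

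A core of segments was found everywhere. Of the members, 35 had a count in all 8 libraries, 120 in at least 1 vehicle library and 96 in at least 1 HPβCD library. The 27 found only with vehicle reached at most 30 counts in a library and the 3 found only with HPβCD at most 1 count, and 29 members had fewer than 10 counts over all libraries. Ighv1-53 and Ighv3-6 were the only 2 members among the 10 most used in each of the 8 libraries. Ighv1-53 took 3.72%, 1.49%, 0.858% and 4.45% of usage with vehicle and 3.83%, 30.2%, 4.59% and 15.9% with HPβCD. Ighv3-6 took 4.71%, 0.764%, 0.947% and 13.0% with vehicle and 12.2%, 6.65%, 3.96% and 10.6% with HPβCD. Both were at their lowest shares in vehicle 2 and 3, the libraries with a leading pair, and the groups overlapped. At the other end, 19 segments were among the 10 most used in 1 library only.

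Single libraries held most of the RNA of many segments. For 83 of the 123 members, over 50% of the CPM summed over the 8 libraries came from 1 library. Ighv5-9-1 was the most one-sided of the abundant segments, with 23395 counts in vehicle 2 and 1 to 55 counts in every other library. Its CPM was 670 in vehicle 2, 3.10, 1.63 and 0.376 in the other vehicle libraries and 0.287, 0.0611, 0.268 and 0.111 with HPβCD. Ighv1-26 had 31.4, 1745, 140 and 22.2 CPM with vehicle and 18.2, 6.85, 3.75 and 2.44 CPM with HPβCD. Ighv1-26 was thus the leading segment of 1 library and also a common one, above its highest HPβCD level in every vehicle library. By contrast, 22.0% of the summed CPM of Ighv1-53 came from its highest library.

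Pairs of libraries within a group and across groups covered overlapping ranges of likeness. The Morisita-Horn overlap of a pair of libraries, which is 1 for identical usage and 0 for none shared, had a median of 0.121 (0.068 to 0.317) over the 6 vehicle pairs. It had a median of 0.364 (0.25 to 0.496) over the 6 HPβCD pairs and of 0.314 (0.0636 to 0.668) over the 16 pairs across groups. The closest pair, at 0.668, was vehicle 3 with HPβCD 1, which share Ighv1-9 as first segment. Vehicle 4 and HPβCD 3, both with Ighv1-75 in the first 2 places, followed at 0.618. Pairs share libraries, so these values are descriptions without a test.

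No family share passed the test. Ighv1, whose segments lie from 1039 to 2570 kb from Ighj1, took 79.2% ± 10.6 (SD, n = 4) of usage with vehicle and 78.1% ± 3.04 (SD, n = 4) with HPβCD. Ighv3, the family of Ighv3-6, took 4.87%, 0.821%, 1.00% and 13.3% with vehicle and 12.3%, 6.98%, 4.59% and 12.5% with HPβCD. Ighv5 took 1.82%, 21.4%, 0.517% and 1.20% with vehicle, the high value being Ighv5-9-1 in vehicle 2, and 0.284% to 2.496% with HPβCD. In 9 families with at least 3 members the exact permutation p ran from 0.143 (Ighv2, 0.540% against 2.01%) to 0.943, and the adjusted p from 0.6 to 0.943. With 4 against 4 the smallest exact p is 0.0286, so 1 family alone could not have passed after adjustment over 9. The spreads between libraries also leave room for sizeable shifts that this test could not show.

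Position along the locus did not separate the groups either. The segments beyond the median position of the members, 1279 kb from Ighj1, took 59.3%, 74.1%, 45.4% and 67.9% of usage with vehicle and 44.2%, 80.0%, 62.8% and 63.1% with HPβCD (exact permutation p = 0.943, adjusted p = 0.943). The lowest 2 values were those of vehicle 3 and HPβCD 1, which were led by Ighv1-9 on the near side of that point. Pseudogene segments held 161 of 191531 Ighv counts, 0.0471% to 0.0984% of Ighv counts with vehicle and 0% to 0.415% with HPβCD, the latter from at most 5 counts a library (exact permutation p = 0.6, adjusted p = 0.686).

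**Figure D4:**
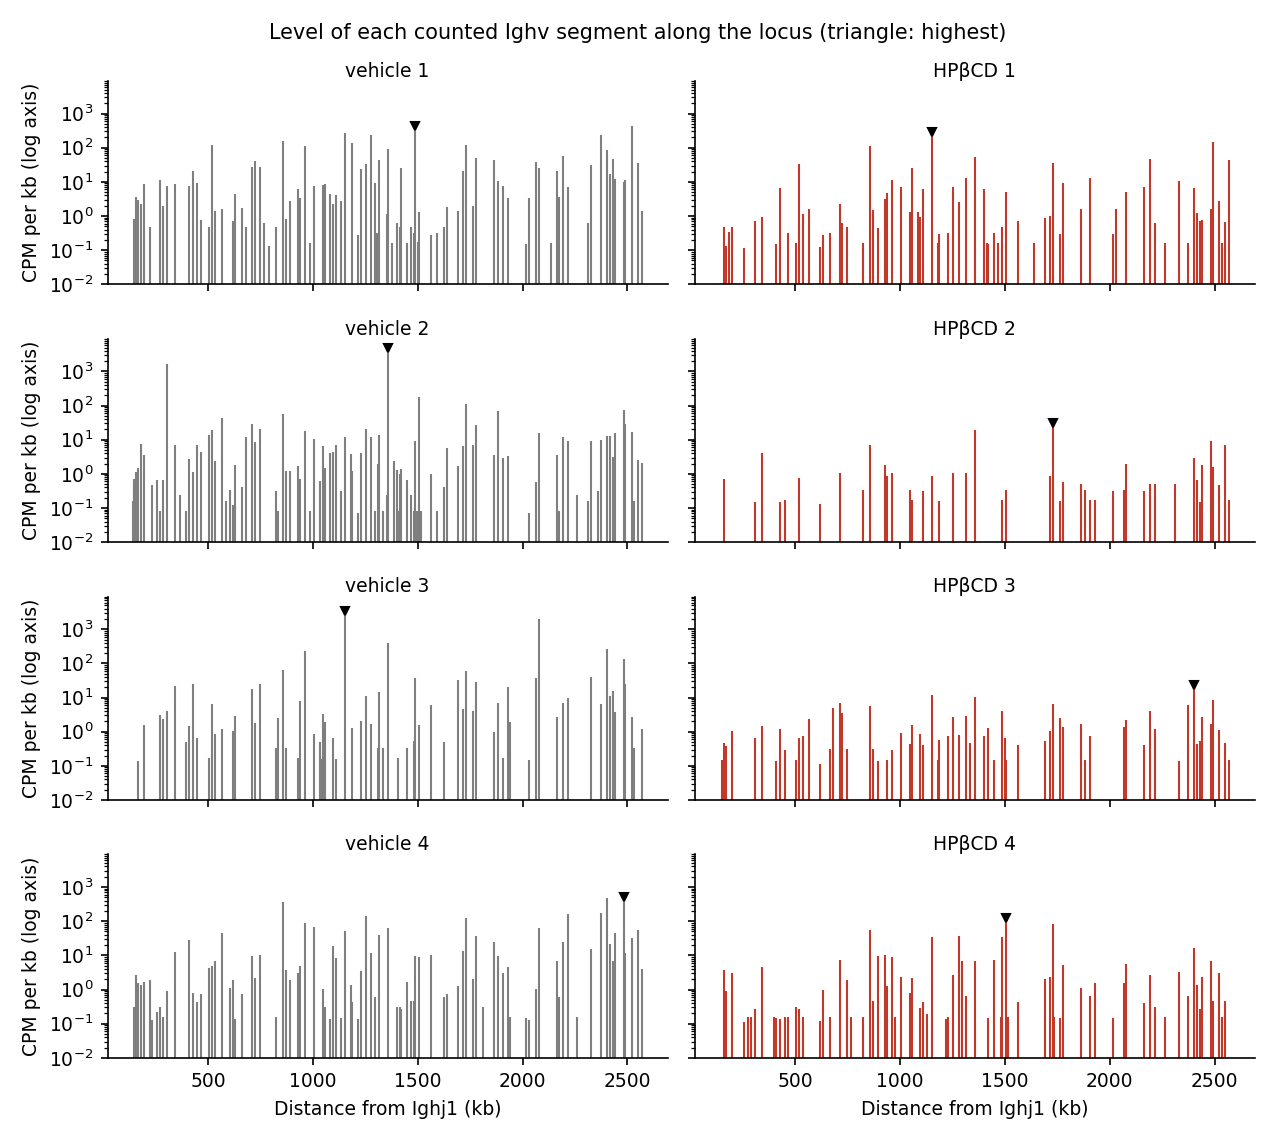
CPM per kb of exon (log axis) of each counted segment against its distance from Ighj1 (kb), 1 panel per library, vehicle on the left and HPβCD on the right; the triangle marks the highest segment. The triangles lie between 1153.7 kb (Ighv1-9) and 2482.5 kb (Ighv1-80), and the tall line nearest Ighj1 in vehicle 2 is Ighv5-9-1.

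Segment by segment, the data pointed down in most members, and 5 passed the test. Expression was compared with edgeR's quasi-likelihood test on all genes, with Benjamini-Hochberg adjustment over the 14736 genes kept by its expression filter. Of the 123 members 45 were kept, and a segment could be kept through the vehicle libraries alone, so the direction of these 45 is no evidence of its own. Among them 26 had an unadjusted p under 0.05 and a lower level with HPβCD, against 16.0% of all tested genes. After adjustment 5 were lower with HPβCD at an adjusted p under 0.05 and none was higher, where 0.774% of all tested genes were called lower and 1.17% higher. Over all 123 members without the filter, 108 had a fold change below 0, against 58.4% of all genes with at least 1 count. For 23 of 123 members each HPβCD library was below each vehicle library, against 5.71% of those genes, and for none was it the reverse, against 5.06%. A segment could also become a member through 1 group alone. The signs of the 27 members counted only with vehicle and the 3 counted only with HPβCD were fixed by that, so the 108 is limited evidence too.

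The 5 segments called lower were not the dominant ones. Ighv1-76 (chromosome 12, 115847881 to 115848331) had 6.43, 4.61, 3.99 and 7.73 CPM with vehicle and 0.459, 0.245, 0.161 and 0.499 CPM with HPβCD. It fell by 4.04 ± 0.41 (SE) on the log2 scale (edgeR adjusted p = 0.0282). Its highest vehicle library had 1.94 times the CPM of its lowest. Ighv14-4 (114176438 to 114176867), from the Ighv14 family, had 9.82, 7.19, 8.88 and 3.54 CPM with vehicle and 0.172, 0, 0.107 and 0.665 CPM with HPβCD. It fell by 4.91 ± 0.77 (SE) on the log2 scale (edgeR adjusted p = 0.0427). Both had even levels over the vehicle libraries and at most 12 counts in any HPβCD library.

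Ighv1-52 (115145487 to 115145919) had 7.51, 2.35, 1.63 and 4.67 CPM with vehicle and 0.344, 0.306, 0.375 and 0.831 CPM with HPβCD, a fall of 3.10 ± 0.57 (SE) on the log2 scale (edgeR adjusted p = 0.0483). Ighv1-77 (115861867 to 115862355) had 19.1, 1.26, 6.28 and 2.74 CPM with vehicle and 0.287, 0.0611, 0.214 and 0.111 CPM with HPβCD, a fall of 5.38 ± 1.00 (SE; edgeR adjusted p = 0.0483). Without vehicle 1 its fitted log2 difference was -4.27. Ighv1-58 (115312166 to 115312599) had 3.84, 25.2, 2.48 and 3.27 CPM with vehicle and 0, 2, 1 and 0 counts in HPβCD 1 to 4. Pooled over libraries and divided by pooled library size, its 1049 vehicle counts were 281 times its 3 HPβCD counts, with an exact 95% interval of 95.8 to 1360 for counting error only (edgeR adjusted p = 0.0483). Vehicle 2 held 879 of the 1049 counts, and without it the ratio was 75.5 (25.4 to 370). For all 5 the groups did not overlap. Each of these calls was lost in 5 to 9 of the 14 or 15 other analyses run on it, with adjusted p from 3.1e-14 to 0.175, while the direction stayed the same. In particular, none of the 5 was called without vehicle 1, vehicle 4, HPβCD 1, HPβCD 2 or HPβCD 3.

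None of the 7 segments that led a library was called by edgeR in the reported analysis. Apart from Ighv1-53 their levels varied widely among vehicle libraries, with an SD of 2.15 to 3.38 on the log2(CPM + 1) scale, against 0.37 to 1.36 for the 5 called segments. The fitted log2 difference of Ighv1-26 was -5.96 (SE 1.71), with an adjusted p of 0.0861 by edgeR, and it was -3.04 without vehicle 2. Ighv1-64, with 10.1, 6.56, 798 and 24.8 CPM against 2.01, 0.795, 0.910 and 2.27, gave -7.12 (SE 1.93), with an adjusted p of 0.0801 by edgeR, and -3.19 without vehicle 3, where it was called. Ighv1-9 had 94.6, 4.10, 1179 and 18.5 CPM with vehicle and 102, 0.306, 4.28 and 12.1 CPM with HPβCD, so that HPβCD 1 was above 3 vehicle libraries. Its fitted log2 difference was -3.45 (SE 2.05), with an adjusted p of 0.316 by edgeR, and it was -0.39 without vehicle 3 and -5.85 without HPβCD 1. Ighv5-9-1 was not tested, because it was above the filter's minimum in too few libraries.

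For Ighv1-80 the CPM was 3.50, 26.7, 48.5 and 177 with vehicle and 0.573, 3.18, 0.589 and 2.44 with HPβCD, and for Ighv1-75 it was 31.6, 4.95, 98.8 and 173 against 2.41, 1.10, 8.57 and 5.93. The groups were apart for Ighv1-80 and overlapped for Ighv1-75. Their edgeR adjusted p were 0.0677 and 0.0824. Ighv1-82 and Ighv1-39 were high in vehicle 1 alone (165 and 155 CPM), and their edgeR adjusted p were 0.0829 and 0.246. Without vehicle 1 their fitted log2 differences went from -6.02 to -3.22 and from -3.63 to -0.90, and without HPβCD 4 that of Ighv1-39 was -6.23. Ighv1-53 and Ighv3-6, among the 10 most used in every library, had smaller differences than the segments just named. That rule favours segments with a high share with HPβCD. The fitted log2 differences were -1.43 (SE 0.65, edgeR adjusted p 0.197) for Ighv1-53 and -1.83 (SE 1.07, edgeR adjusted p 0.310) for Ighv3-6. These were -1.01 for Ighv3-6 without vehicle 4 and -2.85 without HPβCD 1. Ighv1-53 had 42.8, 40.0, 20.96 and 44.7 CPM with vehicle against 12.8, 11.1, 2.30 and 28.9 with HPβCD.

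A few segments had a log2 fold change near or above 0. Ighv1-42 had 44.98 CPM in HPβCD 4 and 63.3 CPM in vehicle 2, and at most 3.06 CPM elsewhere (fitted log2 difference -0.53, SE 2.07, edgeR adjusted p 0.895). Ighv1-81 had 52.4 CPM in HPβCD 1 and 0.166 to 9.97 CPM in the other 7 libraries (1.06, SE 1.46, edgeR adjusted p 0.688). The other 3 above 0 were Ighv1-4 (1.30), Ighv13-2 (0.48) and Ighv1-59 (0.08), with edgeR adjusted p from 0.587 to 0.977. The sign of Ighv1-81, Ighv1-4, Ighv13-2 and Ighv1-59 turned negative in at least 1 of the other analyses.

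**Figure D5:**
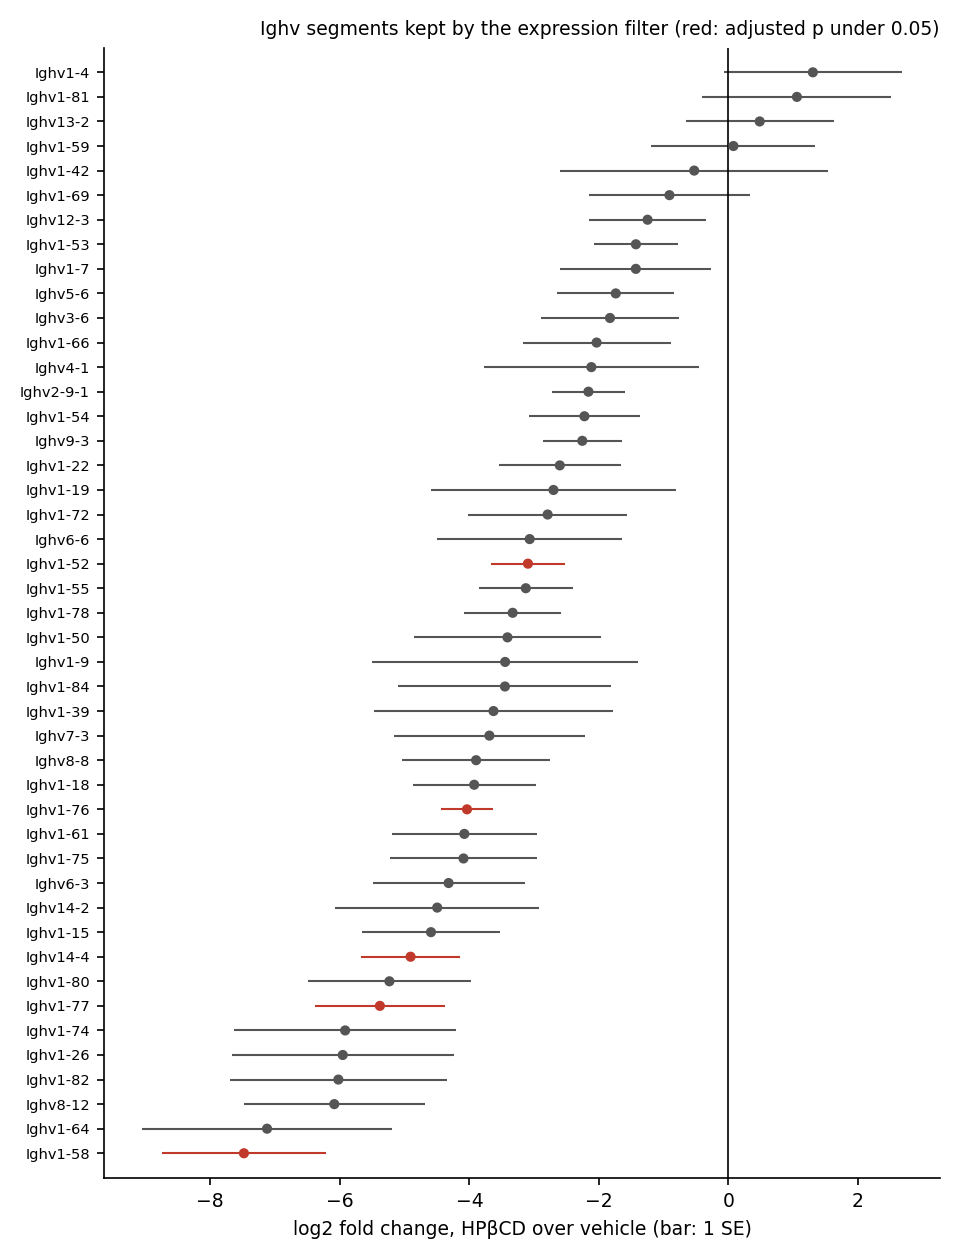
Log2 fold change of HPβCD over vehicle with 1 SE for the 45 members kept by the expression filter, ordered by size, with those at an adjusted p under 0.05 in red. The 5 red segments have short bars or lie far to the left, 4 segments lie above 0, and the widest bars belong to segments that were high in 1 or 2 libraries. The SE was derived from the test's F statistic, so bar length against fold change restates the test.

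The tool mattered for the number of calls. DESeq2 called 29 of the 59 members to which it gave an adjusted p, all lower, where it called 11.1% of all genes lower and 5.92% higher. Limma-voom with sample weights called 23 of 45, all lower, where 11.1% of all genes were called lower and 10.9% higher. DESeq2 gave no p to 11 of the 45 members, among them Ighv1-26, Ighv1-9 and Ighv1-64, because of its rule on counts that stand apart from the rest of their group. Of the abundant segments, it called Ighv1-75, Ighv1-80 and Ighv1-82 (adjusted p = 0.00182, 0.000139 and 0.000414), and limma-voom called Ighv1-64, Ighv1-53 and Ighv3-6 (adjusted p = 0.0277, 0.0143 and 0.0462).

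Vehicle 1 and 3 held far more neuron transcripts than the other infarcts. The 8 neuron markers examined summed to 1396 and 8409 CPM there, to 50.3 and 16.5 CPM in vehicle 2 and 4 and to 6.11 to 99.3 CPM with HPβCD. Without these 2 libraries the log2 difference in the Ighv share was -4.13 (exact permutation p = 0.0667, the smallest that 2 against 4 allows). There edgeR called 12 of 55 members, all lower, including the same 5, where it called 202 of 15066 genes in either direction. The 6 macrophage markers summed to 10040 to 21820 CPM with vehicle and to 26690 to 32990 CPM with HPβCD, most of it from Lyz2 and Gpnmb. The groups did not overlap for Lyz2, Gpnmb and Cd68 and overlapped for Csf1r, Adgre1 and Trem2. These markers' part in the Ighv results was not tested.

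Genes of the cells that make heavy chains were described by lists. Of 10 B lymphocyte genes 9 had a negative fold change and edgeR called 3 lower, against 0.774% of all tested genes, namely Cd79a, Cd79b and Blk. Cd79a and Cd79b encode the signalling pair of the antigen receptor, and Blk a kinase that acts after it. Their log2 fold changes were -1.89 ± 0.38, -1.88 ± 0.36 and -1.82 ± 0.33 (SE; edgeR adjusted p = 0.0485, 0.0483 and 0.0483). Cd22, an inhibitory receptor also found on microglia, had the opposite sign (0.56 ± 0.17, SE; edgeR adjusted p = 0.0884). Of 10 plasma cell genes 8 had a negative fold change and 2 were called lower, namely Jchain, which joins antibody subunits into polymers (-4.00 ± 0.64, SE; edgeR adjusted p = 0.0462), and Bhlha15, a regulator of secretory cells (-3.57 ± 0.63, SE; edgeR adjusted p = 0.0483). Sdc1, a surface marker of plasma cells, and Fkbp11 had positive values of 0.41 and 0.02, and the transcription factors Xbp1 and Prdm1 had -0.28 and -0.17, none of them called. The calls of these 5 genes were each lost in 8 to 10 of 15 other analyses, with adjusted p from 5.85e-10 to 0.175, and all were lost without vehicle 1, vehicle 4, HPβCD 2, HPβCD 3 or HPβCD 4. The list medians were -1.92 for B lymphocyte genes and -1.45 for plasma cell genes, against -0.05 over all tested genes. Of 8 T lymphocyte genes none was called, with a median of 0.09.

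The machinery that cuts, joins and mutates the segments was described by 12 genes, and none passed the test. Of these 8 were tested by edgeR (4 lower and 4 higher in sign, median log2 fold change -0.0053), and the lowest unadjusted p was 0.175, for the DNA end-joining gene Nhej1. The 12 genes summed to 78.6 to 109 CPM with vehicle and to 83.4 to 102.3 CPM with HPβCD. Rag2, a part of the recombinase, had no count in any library, and Rag1, its partner, was at 0 to 0.229 CPM. The tested genes act in general DNA repair, such as Lig4, the ligase that seals joined ends (13.8 ± 2.09 against 12.6 ± 2.60 CPM, SD, n = 4 each).

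Ighm, the constant region of IgM, was the most counted of the 8 heavy chain constant genes in each library, and there were 30.7, 42.6, 22.8 and 38.6 Ighv counts per 100 constant counts with vehicle and 24.0, 18.4, 15.5 and 38.6 with HPβCD. In the 2 libraries with a leading Ighv pair, 1 light chain variable segment took a large share of light chain variable counts, Igkv8-28 with 43.0% in vehicle 2 and Igkv4-63 with 51.3% in vehicle 3. The first such segment took 14.5% to 15.1% in the other vehicle libraries and 16.1% to 41.5% with HPβCD. A large share was not particular to libraries with a leading pair. The 41.5% was Igkv14-111 in HPβCD 3, the library with the most even Ighv usage, on 899 light chain variable counts.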

How the data were processed

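RNA from 8 dissected infarcts (4 per group) was made into stranded mRNA libraries. Per the labels and the study's methods the authors used bcl2fastq 2.19, Trimmomatic 0.32, STAR 2.5.2b on GRCm38 and HTSeq, and deposited whole-number counts of reads per gene for each library. The HTSeq version, strand setting and annotation release are not given in the sources used here. Reads from rearranged or mutated segments may align less well, and reads shared by similar segments may be lost.

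Here, rows that name no gene (26.6% to 36.6% of each table) were left out, symbols were taken from a GENCODE annotation of GRCm38 (45143 of 46078 IDs matched, the rest holding 0.0484% of counts), and usage was computed from counts per kb of exon. Genes were tested with edgeR 4.0.16 (TMM, filterByExpr, robust quasi-likelihood, Benjamini-Hochberg) in R 4.3.3 on all libraries with no covariate. The SE of an edgeR log2 fold change was its absolute value divided by the square root of the test's F statistic. DESeq2 1.42.0, limma 3.58.1, other scalings, no filter, a replicate block and leaving out libraries were alternatives. Usage measures were compared with exact two-sided permutation tests (scipy 1.17.1). The scripts were tested on simulated data. The study's methods state random allocation to treatment. The labels do not say that each library is a separate mouse. The study's methods state that its plots show individual mice, and it gives n = 4 per group for its plot of these infarcts. On that reading p-values measure the spread between mice. Otherwise they measure the spread between samples, which may be technical. The segments described singly are the 10 with the highest mean CPM per kb, the first of each library, those called by edgeR and tested ones with a log2 fold change above 0. Ighv1-72, Ighv1-62-3 and other genes named outside the lists were chosen after their values were seen. Some genes of the lists are not reported here. The members and gene lists were chosen with earlier results of these data known.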

Additional observations from a re-analysis of the deposited data

Results flagged for a closer look

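Within each group of 4 libraries, the highest and the lowest value of each usage measure, family share and described segment were checked for standing far from the other 3. Of 74 groups 8 were picked out, where chance would pick about 3.7 (1 in 20) if the values were normally distributed. Shares bounded at 0 need not be so distributed, so no excess can be read from this number. Vehicle 2 stood high in the share of family Ighv5 (21.4%, others 0.517% to 1.82%) and in the level of Ighv1-58 (4.71 on the log2(CPM + 1) scale, others 1.80 to 2.27). Vehicle 1 stood high in the share of Ighv7 (1.30%, others 0.0264% to 0.170%). Vehicle 3 stood low in Ighv1-53 (4.46 on the log2(CPM + 1) scale, others 5.36 to 5.51). HPβCD 3 stood high in the shares of Ighv7 (2.39%, others 0% to 0.1%) and Ighv9 (8.53%, others 0.429% to 1.55%). HPβCD 4 stood high in Ighv1-52 (0.87 on the log2(CPM + 1) scale, others 0.38 to 0.46), and HPβCD 1 in Ighv1-59 (2.45, others 0.09 to 0.34). The Ighv5 share of vehicle 2 is that of Ighv5-9-1, and the shares of HPβCD 3 rest on 964 Ighv counts in all.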

How the results depend on the processing

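The lower Ighv share with HPβCD kept its sign in each alternative run. Its log2 difference was -4.69 to -3.61 when 1 library was left out, and lost its exact p under 0.05 without vehicle 2 (-3.87), without vehicle libraries 1 and 3 (-4.13, chosen after seeing the data) and in the sign-flip test of the replicate block (-4.12, p = 0.125, the smallest it allows). The number of segments called was 5 in the reported analysis, 29 with DESeq2, 23 with limma-voom, 1 with library totals only, 3 with every gene of at least 1 count, 3 with the replicate block, 12 without vehicle libraries 1 and 3 and 0 to 9 with 1 library left out (0 without vehicle 1, vehicle 4, HPβCD 1, HPβCD 2 or HPβCD 3, 9 without vehicle 3). The number of all genes called moved as well. In the same order it was 287, 2899, 3253, 11, 296, 9, 202 and 0 to 629, in either direction. In the 5 fits with 0 segments called, edgeR called 0 to 4 of all genes. The reverse sign was seen for the distal share (-4.60 without vehicle 3, -4.98 without HPβCD 2, -8.48 without vehicle libraries 1 and 3), Ighv1 (3.66 without vehicle 3, 0.135 without HPβCD 3, 7.13 without each library's most used segment), Ighv8 (0.183 without vehicle 4), Ighv7 (-0.356 without HPβCD 3) and the pseudogene share (-0.0104 without HPβCD 3, and -0.0477 percentage points over segments with at least 10 counts, where the exact p was 0.0286). That minimum was on counts summed over all libraries. A pseudogene segment could pass it through the vehicle libraries alone, so the last sign and p are no evidence of a difference. An exact p of 0.0286, unadjusted, was reached for Ighv6 without vehicle 2 (-2.61 points) and for Ighv2 (2.08 points) and Ighv9 (3.13 points) without HPβCD 1. The ranges with 1 library left out were -18.2 to -1.05 points for the share of the first segment, -10.5 to -0.434 for that of the first 10, 0.17 to 1.14 for log2 inverse Simpson, 0.0907 to 0.231 for evenness, 3.71 to 12.7 for segments at even depth, -6.98 to -0.0373 points for Ighv5, 2.70 to 6.87 for Ighv3, -0.854 to -0.135 for Ighv14, -4.98 to 6.95 for the distal share, -4.57 to 3.66 for Ighv1, 0.608 to 2.08 for Ighv2, -2.61 to -0.939 for Ighv6, -0.356 to 0.529 for Ighv7, -1.92 to 0.183 for Ighv8, 0.428 to 3.13 for Ighv9 and -0.0104 to 0.128 for the pseudogene share. Single segments of the reverse sign were Ighv1-42 (3.11 without vehicle 2), Ighv1-81 (-1.07 with limma-voom, -1.79 with the replicate block, -2.46 without HPβCD 1), Ighv1-4 (-1.17 without HPβCD 1), Ighv1-59 (-1.50 with limma-voom, -0.0278 with library totals, -0.73 with the replicate block, -0.30 without vehicle 3, -2.63 without HPβCD 1), Ighv13-2 (-0.57 with limma-voom, -0.71 without HPβCD 4) and, without vehicle libraries 1 and 3, Ighv1-9 (1.42) and Ighv1-39 (0.11). With 1 library left out the ranges were -4.68 to 3.11 for Ighv1-42, -2.46 to 1.48 for Ighv1-81, -1.17 to 2.58 for Ighv1-4, -2.63 to 0.76 for Ighv1-59 and -0.71 to 1.2 for Ighv13-2. The causes were not tested. Libraries with the same number did not pair: the correlations of their deviations from the group means were -0.257, 0.244, 0.329 and 0.0975, and 3 of 8 libraries correlated best with their own number. The 612 to 5914 Ighv counts of the HPβCD libraries limit what can be said of rare segments there.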

Other observations

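Vehicle 2, the library led by Ighv1-26 and Ighv5-9-1, also held 2340 CPM of Ighg1 and 44.8 CPM of Ighe, the constant regions of IgG1 and IgE. In the other 7 libraries Ighg1 was at 0.306 to 146 CPM and Ighe at 0 to 0.107 CPM. Vehicle 3, led by Ighv1-9 and Ighv1-64, had the highest Ighm level, 10610 CPM against 163 to 3827 CPM elsewhere. These values come from different reads of the same libraries, and which variable segment was joined to which constant region was not measured.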
